A study of Caenorhabditis elegans with 2 samples.

Results

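The genes described here make the small RNAs that start endogenous RNA interference in Caenorhabditis elegans: the enhanced-RNAi genes eri-1, eri-3, eri-5, eri-6, eri-7 and eri-9, the RNA-dependent RNA polymerase gene rrf-3, the Dicer gene dcr-1, and the Dicer and polymerase partners rde-4 and drh-3. They are 10 of the 45510 genes in the count tables. The tables carry no locus name for these genes, so they were found by the WormBase gene identifier on each transcript line, and the 24 lines that belong to them were added up per gene. All 10 were listed as protein-coding.

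The data were 2 libraries of small RNAs that came down with tagged NRDE-3, an Argonaute that carries small RNAs into the nuclei of somatic cells, from embryo lysates of animals kept at 20 °C. The N2 library came from wild-type N2 animals that carry 3xflag::gfp::nrde-3 and were fed E. coli OP50. The RNAi library came from eri-1(mg366);dpy-13(e458) animals that carry the same tagged nrde-3 and grew on dpy-13 RNAi plates and served the study as a control. With 1 library a group there is no spread between samples and hence no p-value. Strain, food and the handling of each library cannot be told apart. Intervals are 95% and cover counting error only. They treat reads as independent molecules, which reads of amplified libraries are not, so they may be too narrow even for counting error. The labels do not give the promoter that drives the tagged nrde-3.

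As background, the ERI complex is built around Dicer. RRF-3 copies a target messenger RNA into double-stranded RNA, and Dicer cuts it into primary small RNAs that are loaded on the Argonautes ERGO-1, ALG-3 and ALG-4. Other polymerases then make secondary small RNAs antisense to the target, and NRDE-3 binds these and takes them to the nucleus. Loss of an ERI protein frees shared factors for RNA interference from outside, which gives the enhanced response for which the eri genes are named. The counts below are therefore those of small RNAs that match the pathway's own genes; they are not a measure of how much messenger RNA or protein these genes made.

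Counted reads numbered 7693320 in N2 and 5537671 in the RNAi library. Antisense reads outside structural RNA (the ribosomal, transfer, spliceosomal and nucleolar RNAs and microRNAs) made up 17.3% and 7.69% of them. As a check of the stage, sense reads of the embryonic microRNAs mir-35 to mir-42 summed to 2546 and 12571, while the larval microRNAs let-7 and lin-4 had 1 and 20 reads in sum, and lin-4 was at 0 in both. As a check of the trigger, antisense reads of dpy-13 numbered 1 in the N2 and 115 in the RNAi library. Levels are given as RPM, reads per 1000000 counted reads of both strands. The embryonic microRNA sum was 331 RPM in the N2 and 2270 RPM in the RNAi library, and the larval sum 0.130 and 3.61 RPM. Sense reads of all microRNAs were 3.45-fold higher per counted read in the RNAi library. Whether the 2 libraries differ in stage was not tested.

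Of the 10 genes, eri-6 carried most of the antisense small RNAs in both libraries. eri-6 encodes part of a helicase that is completed by joining its RNA to that of eri-7, and the helicase is needed for the small RNAs of ERGO-1. The gene lies on chromosome I, 4457375 to 4469460, plus strand (WBcel235). The N2 library had 67 antisense reads of eri-6, which is 8.71 RPM (6.75 to 11.1). The RNAi library had 623, which is 113 RPM (104 to 122). These were 56.8% of the antisense reads of all 10 genes in the N2 library (Wilson interval 47.8 to 65.4) and 71.3% in the RNAi library (68.2 to 74.2). Of 20524 protein-coding genes, 161 had more antisense reads than eri-6 in the N2 library and 41 had more in the RNAi library. The ratio of the RNAi over the N2 library was 12.9 (10.0 to 16.9).

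**Figure D1:**
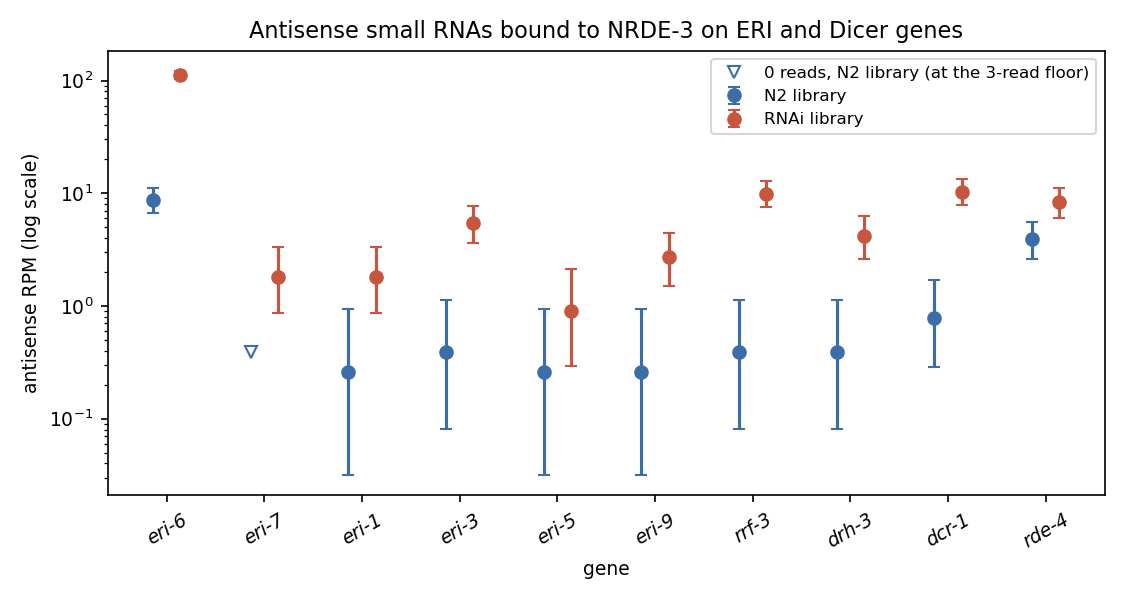
Antisense RPM on a log axis for each gene in the N2 (blue) and RNAi (red) library, 1 library each. Bars are exact 95% Poisson intervals, and the open triangle marks eri-7, at 0 reads in the N2 library, at its 3-read floor of 0.390 RPM. eri-6 stands above the other genes in the RNAi library at 113 RPM, and rde-4 is the gene after eri-6 in the N2 library at 3.90 RPM.

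The antisense reads of eri-6 were not spread evenly over its transcripts. The tables list 8 transcript lines for the gene. Transcripts a to d start together and share their first 6 exons in the current annotation (Ensembl 115), which are the exons nearest to eri-7. Transcript e begins 6479 bases and transcript f 8283 bases downstream of the gene's start, and both share 0 exon bases with transcripts a to d. The lines of e and f held 51 of the 67 antisense reads in the N2 library, or 76.1% (64.7 to 84.7), and 493 of the 623 in the RNAi library, or 79.1% (75.8 to 82.1).

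Within each set of lines the reads were again uneven. The e line had 24 and 175 antisense reads in the N2 and RNAi library, and the f lines together had 27 and 318. In the upstream set, line c.1 alone had 13 and 109, whereas lines a, b, c.2 and d together had 3 and 21. A read that matches several transcripts equally well is listed at 1 of them, so reads from the shared upstream exons could fall on any of these lines. In the current annotation c.1 has 100 exon bases that no other eri-6 transcript has. The annotation holds only 1 form of c and 1 of f where 2 of each are listed, and the WS243 exons were not used here. Line f.2, with 6 and 113 antisense reads, therefore adds reads but no exons of its own to the lengths used below.

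**Figure D2:**
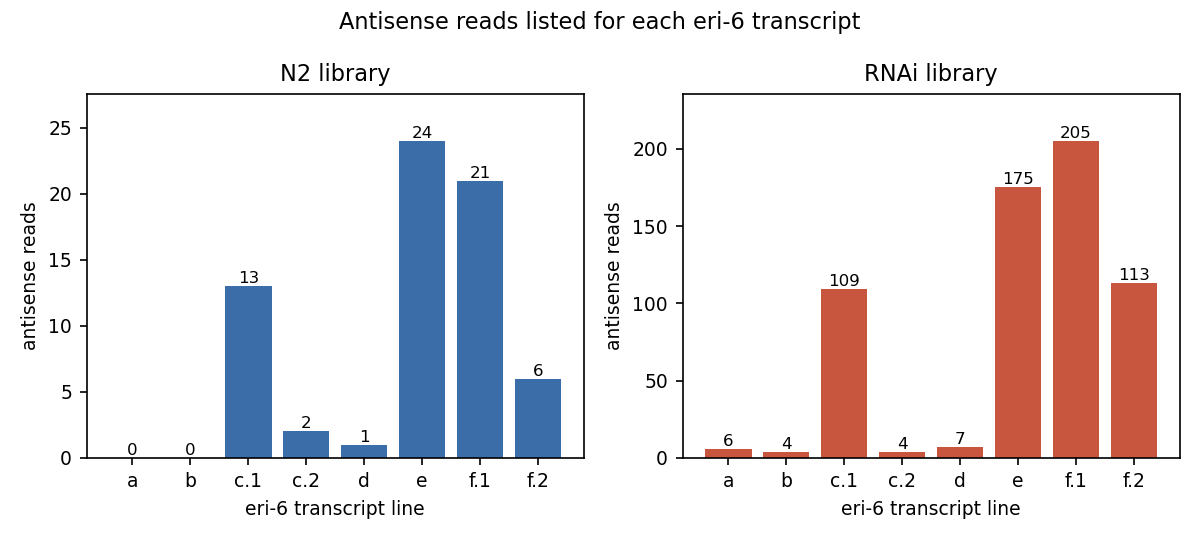
Antisense reads listed for each eri-6 transcript line in the N2 (left) and RNAi (right) library, with the count above each bar; the axes start at 0 and differ in scale. Lines c.1, e, f.1 and f.2 hold nearly all reads in both libraries, with 24 and 175 reads on e.

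By group of eri-6 lines, the ratio was 13.4 (10.1 to 18.3) for e and f, 11.6 (6.53 to 22.6) for c.1 and 9.72 (2.90 to 50.9) for a, b, c.2 and d, and the intervals overlap. Per length, e and f with 2060 exon bases had 3.22 antisense RPKM (RPM per kilobase of exon) in the N2 library (2.40 to 4.23) and 43.2 in the RNAi library (39.5 to 47.2). Transcripts a to d with 2955 exon bases had 0.704 (0.402 to 1.14) and 7.94 (6.64 to 9.43). By these exon lengths, the downstream transcripts carried the higher density of antisense reads in both libraries. Their intervals do not overlap those of the upstream transcripts.

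**Figure D3:**
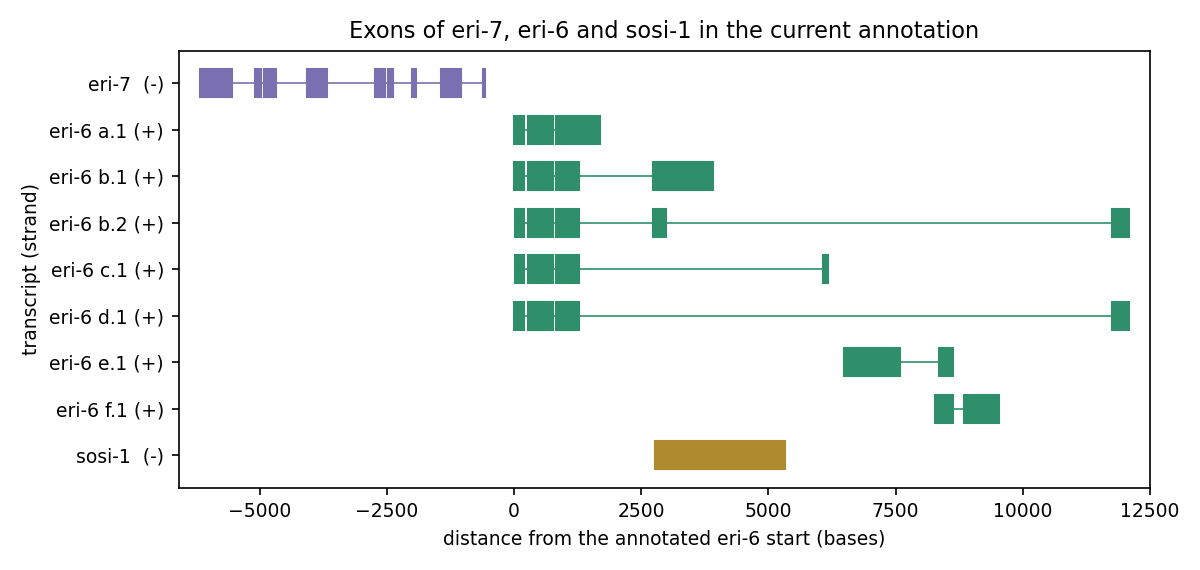
Exons (boxes) of eri-7, eri-6 and sosi-1 against distance in bases from the annotated start of eri-6, with the strand of each transcript in brackets. eri-7 points away from eri-6 on the minus strand, e begins 6479 and f 8283 bases into eri-6, and neither shares an exon with a to d, and sosi-1 lies opposite the last exon of b.1.

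eri-7, which supplies the rest of the trans-spliced helicase, had almost no antisense reads beside its partner. It lies on chromosome I, 4451194 to 4456805, on the minus strand, 569 bases from the start of eri-6 and divergent from it. It had 0 antisense reads in the N2 library (interval up to 0.479 RPM) and 10 in the RNAi library, or 1.81 RPM (0.866 to 3.32). Set against a floor of 3 N2 reads, or 0.390 RPM, the 10 reads were 4.63-fold higher. With the counting error of both counts the lower 95% limit of the ratio was 3.11. Its sense reads numbered 3 and 16. Per length, eri-7 had 0.825 antisense RPKM in the RNAi library (0.396 to 1.52), below both sets of eri-6 transcripts with no overlap of the intervals.

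sosi-1, on the opposite strand within the eri-6 span (4460146 to 4462704), had 7 antisense reads in the N2 library and 64 in the RNAi library. The ratio of 12.7 (5.82 to 32.9) is close to that of eri-6 and to the median of all measured genes, 11.9, given below. Its single exon of 2559 bases lies over eri-6 exons for 1131 bases, all in exons of transcript b, and over transcripts e and f for 0 bases. Line b of eri-6 had 0 and 4 antisense reads, and sosi-1 had 2 and 14 sense reads. Reads from the overlap could be listed at either gene, but the current exons of e and f lie outside it.

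The other eri genes had few antisense reads. eri-1 (chromosome IV, 415635 to 419958), the gene mutated in the RNAi strain, encodes an exonuclease that acts on small RNAs and trims the end of a ribosomal RNA. Its antisense reads numbered 2 and 10 (0.260 and 1.81 RPM), and the ratio was 6.95 (1.48 to 65.2). The 10 reads in the mutant strain were listed at all 4 of its transcript lines, with 2, 4, 2 and 2. A read that matches several lines is listed at 1 of them, so this split does not show small RNAs against each transcript. Its sense reads were 3 and 3. No sequence of the mg366 allele was used here, so whether any read spans the lesion was not tested.

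eri-3 (chromosome II, 1123534 to 1127791), a Dicer-associated protein of the complex, had 3 and 30 antisense reads, or 0.390 and 5.42 RPM, a ratio of 13.9 (4.32 to 71.1). eri-9 (chromosome III, 4932450 to 4934947) had 2 and 15, a ratio of 10.4 (2.42 to 93.9). In the RNAi library its 4 lines were listed with 3 or 4 reads each, a split with the same limit as that of eri-1. eri-5 (chromosome IV, 2390821 to 2396263), a Tudor-domain protein that ties the polymerase to Dicer, had 2 and 5, a ratio of 3.47 (0.569 to 36.5). eri-5 was the gene with too few reads to count as measured, which took 10 or more antisense reads over both libraries, and its interval includes equal levels. Summed without eri-6, the eri genes had 9 antisense reads in the N2 library and 70 in the RNAi library, a ratio of 10.8 (5.38 to 24.6).

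The polymerase gene rrf-3 and the helicase gene drh-3 had higher antisense levels in the RNAi library, by ratios whose intervals hold the median of all measured genes given below. rrf-3 (chromosome II, 8162465 to 8168651), which makes the double-stranded RNA of the pathway, had 3 and 55 antisense reads, or 0.390 and 9.93 RPM. Its ratio of 25.5 (8.27 to 127) was the largest among the genes with a read in both libraries, and 74.8% of measured genes had a lower one. drh-3 (chromosome I, 7820831 to 7826378), a Dicer-related helicase that works with several polymerases, had 3 and 23, or 0.390 and 4.15 RPM, a ratio of 10.7 (3.22 to 55.4). With 3 N2 reads each, the intervals of both genes overlap widely.

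Dicer and its partner rde-4 had different ratios, with intervals that do not overlap. dcr-1 (chromosome III, 8071967 to 8080281), the nuclease itself, had 6 antisense reads in the N2 library (0.780 RPM) and 57 in the RNAi library (10.3 RPM), with a ratio of 13.2 (5.70 to 37.5). rde-4 (chromosome III, 10217302 to 10218646) encodes the double-stranded RNA-binding protein that presents substrates to Dicer. It had 30 antisense reads in the N2 library, or 3.90 RPM (2.63 to 5.57), and 46 in the RNAi library, or 8.31 RPM (6.08 to 11.1). Its ratio of 2.13 (1.32 to 3.50) is the lowest of the 10 genes.

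In the N2 library rde-4 was thus the second gene of the group, with 25.4% of its antisense reads (18.4 to 34.0), and in the RNAi library it held 5.26% (3.97 to 6.95). Of the protein-coding genes, 251 had more antisense reads in the N2 library and 1170 in the RNAi library. The annotation places no other gene over rde-4, on either strand. Among the 261 protein-coding genes with 30 or more antisense reads in the N2 library, 103 had a ratio above 1 and the median was 0.110. Among the 162 with 67 or more, the level of eri-6, 30 had a ratio above 1 and the median was 0.00940. eri-6 and rde-4 were therefore in the smaller share of such genes, those without a lower level in the RNAi library; choosing genes for a high N2 count by itself lowers the ratio.

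Of the 5751 measured genes, 5466 had more antisense RPM in the RNAi library, and all 10 genes of the group did. A gene could pass the minimum of 10 reads on the reads of 1 library alone, as eri-7 did with 0 and 10. That share and the medians below therefore depend on this minimum, which favors genes with high RNAi counts where N2 counts are low. The median ratio of the measured genes, with 0.5 added to each count, was 11.9 (middle of the distribution from 6.64 to 22.4). Of the 10 genes 9 were measured, their median was 12.1, and the intervals of 8 of the 9 hold the all-gene median. The exception was rde-4, whose ratio was 5.64-fold below that median; 93.3% of measured genes had a higher one. With the 0.5 added, 2 of the 9 lay 2-fold or more below the median, rde-4 and eri-1, and 1 lay 2-fold or more above it, eri-7. The places of eri-1 and eri-7 rest on the 0.5: the plain ratio of eri-1, 6.95, is less than 2-fold below the median, and eri-7 has a count of 0. Among all measured genes 22.1% lay as far below and 23.5% as far above.

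**Figure D4:**
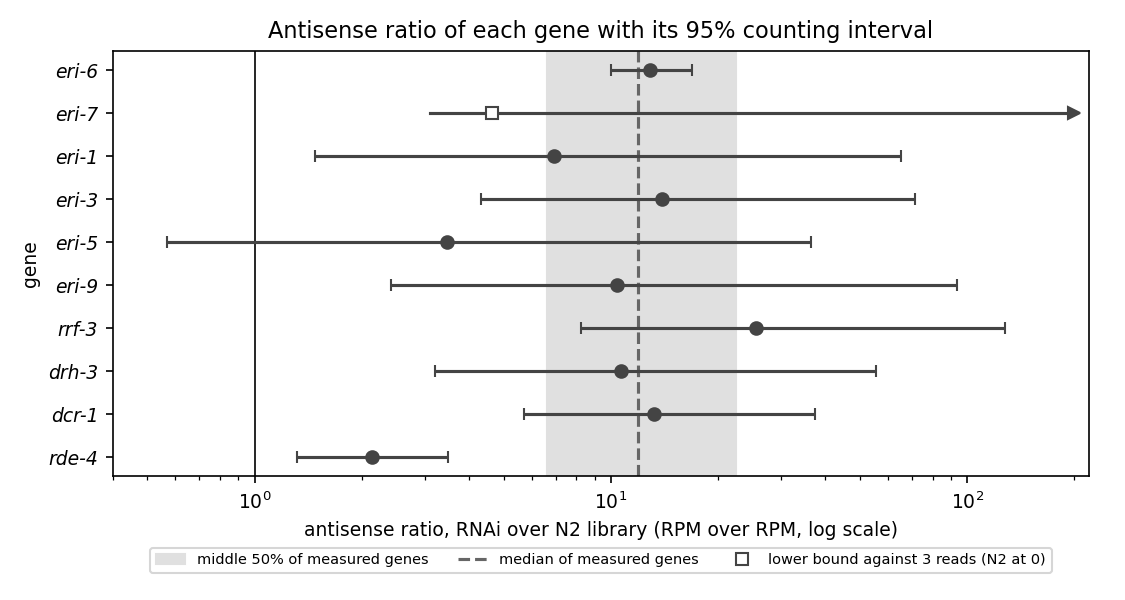
Ratio of antisense RPM in the RNAi library over the N2 library on a log axis, with exact 95% counting intervals; the grey band and dashed line are the middle and median of the 5751 measured genes. Among the 9 measured genes of the group, the interval of rde-4 alone lies wholly below the dashed line at 11.9, and the open square of eri-7 is a lower bound.

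A rule of size asked for 10 RPM in the library with the higher level, 4-fold between libraries and an interval beyond 2-fold. By it, eri-6 and dcr-1 were higher in the RNAi library and 0 genes were lower. A lower call was not possible for any of the 10 genes, as the highest N2 level, that of eri-6, was 8.71 RPM. Of all measured genes 18.6% met the rule as higher and 2.63% as lower, so 2 of 9 is near the background. The level minimum decided the count: dcr-1 lay just inside it at 10.3 RPM and rrf-3 just outside at 9.93 RPM. No call held under scaling by TMM or by microRNA sense reads, where 0 of the 10 genes and 0.156% and 3.04% of all measured genes met the rule as higher. The antisense reads of the 10 genes summed to 118 in the N2 library and 874 in the RNAi library, a ratio of 10.3 (8.48 to 12.6). The sum was 6.84 (5.04 to 9.43) without eri-6, and 13.6 (8.64 to 22.4) without both eri-6 and rde-4. Leaving out eri-6 moved the sum by over 1.5 times, because rde-4 then holds most of the N2 reads.

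Levels between the genes were compared per kilobase of exon. In the N2 library the highest was rde-4 with 3.24 antisense RPKM (2.19 to 4.62), followed by eri-6 with 1.74 (1.35 to 2.21), and the ratio of these densities was 1.87 (1.17 to 2.91). The other 8 genes lay between 0 and 0.217 RPKM. Among those with a read, the interval of the density ratio included 1 for each pair. In the RNAi library eri-6 led with 22.4 (20.7 to 24.3), then rde-4 with 6.90 (5.05 to 9.20), then eri-3 with 3.02 (2.04 to 4.31), and the intervals of these 3 do not overlap. rrf-3 followed with 1.80 and dcr-1 with 1.75. The density of eri-3 was 1.68 times that of rrf-3 (1.04 to 2.67) and 1.73 times that of dcr-1 (1.07 to 2.73), and rrf-3 stood to dcr-1 at 1.03 (0.696 to 1.51). From rrf-3 down to eri-5, the interval of the ratio between neighbours in the order included 1. At the low end, eri-1 had 0.820 and eri-5 had 0.496, a ratio of 1.65 (0.515 to 6.17).

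Sense reads, which have the strand of the messenger RNA, gave a second readout. Summed over the 10 genes they numbered 97 in the N2 library and 239 in the RNAi library, a ratio of 3.42 (2.69 to 4.38), smaller than that of the antisense reads. dcr-1 held the most, with 33 and 120, or 4.29 and 21.7 RPM, a ratio of 5.05 (3.41 to 7.67). dcr-1 alone met the size rule for sense reads, against 7.54% of the 7591 genes with 10 or more sense reads. No gene of the group met it as lower, against 0.263%. None could, as the highest N2 sense level, that of dcr-1, was 4.29 RPM, under the minimum of 10 RPM. The 9 genes with enough sense reads had a median ratio of 2.32, and all such genes had 2.89. eri-7 had a sense ratio of 7.41 (2.12 to 39.7) from 3 and 16 reads.

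The antisense share of a gene's own reads does not depend on how the libraries are scaled. For eri-6 it was 90.5% (81.7 to 95.3) in the N2 library and 98.0% (96.5 to 98.8) in the RNAi library. For rde-4 it was 76.9% (61.7 to 87.4) and 76.7% (64.6 to 85.6), with intervals that nearly coincide; its sense reads were 9 and 14, a ratio of 2.16. For the other 8 genes together it was 20.6% (13.9 to 29.4) and 49.2% (44.4 to 53.9), with no overlap of the intervals.

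rrf-3 went from 18.8% (6.59 to 43.0) to 62.5% (52.1 to 71.9) and eri-3 from 33.3% (12.1 to 64.6) to 85.7% (70.6 to 93.7). dcr-1 had the lowest share in the RNAi library, 32.2% (25.8 to 39.4), after 15.4% (7.25 to 29.7) in the N2 library. The median over protein-coding genes with 10 or more reads was 8.25% in the N2 library (4538 genes) and 36.1% in the RNAi library (7757 genes). In the N2 library eri-6, rde-4, drh-3 (23.1%, 8.18 to 50.3), eri-1, eri-3 and eri-5 were above the upper quartile of 20.0%, the last 3 with fewer than 10 reads each, and 8 of the 10 genes had more sense than antisense reads; in the RNAi library 3 did, eri-5, eri-7 and dcr-1.

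**Figure D5:**
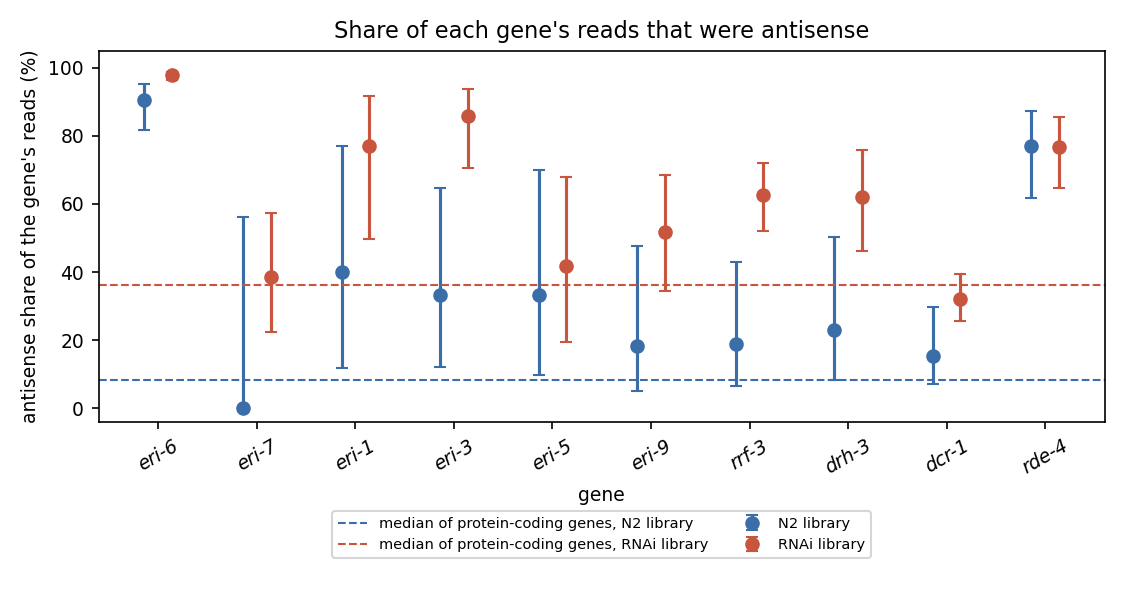
Antisense share, in percent, of each gene's reads in the N2 (blue) and RNAi (red) library with Wilson 95% intervals; dashed lines are the medians of protein-coding genes with 10 or more reads, 8.25% and 36.1%. eri-6 and rde-4 are high in both libraries, and rde-4 stays at 76.9% and 76.7%.

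Other genes of the pathway showed the same general shift. Of a list of 41 names, 38 were matched; mut-8 and rde-3, which are other names of the listed rde-2 and mut-2, and drh-2 were not. Of the 30 measured genes 11 met the size rule as higher and 1 as lower, beside 18.6% and 2.63% of all measured genes, and their median ratio was 11.6. The gene with the most antisense reads was nrde-3, with 319 and 10360, a ratio of 45.1 (40.4 to 50.6); its tagged copy was present in both strains. eri-12, another gene of the enhanced-RNAi class, had 2343 antisense reads in the N2 library and 4 in the RNAi library, a ratio of 0.00237 (0.000646 to 0.00608). It was the gene of the list that met the rule as lower. The 10 genes of the complex could not meet it so, as none reached 10 RPM in the N2 library.

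The next 3 by reads were xrn-2, a nuclear exonuclease gene, with 25 and 190 antisense reads and a ratio of 10.6 (6.94 to 16.7), the germline nuclear Argonaute hrde-1 with 7 and 196 and a ratio of 38.9 (18.5 to 98.0), and the double-stranded RNA channel sid-1 with 8 and 162 and a ratio of 28.1 (13.9 to 66.3). The polymerase partner ekl-1 and the polymerases rrf-1 and ego-1 had 10 antisense reads in sum in the N2 library and 82 in the RNAi library. None of these 3 could meet the rule, as their RNAi levels of 1.99, 8.85 and 3.97 RPM lay below its minimum of 10 RPM. Their ratios were 7.64 (1.67 to 70.9), 11.3 (4.86 to 32.4) and 15.3 (3.76 to 134). The 5 nuclear RNAi genes had a median ratio of 30.1, and 3 of them met it as higher. The phosphatase pir-1, which copurifies with Dicer, had 2 and 8 antisense reads, and ergo-1 had 8 and 45.

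The genes whose 4 values (antisense and sense level in each library) were most like those of eri-6 were F44F1.4, saeg-2 and K08E5.1, at log2 distances of 0.648, 1.00 and 1.21. F44F1.4 had 65 and 556 antisense reads and 11 and 14 sense reads. saeg-2 had 65 and 1121, with a ratio of 24.0 (18.7 to 31.3), and K08E5.1 had 63 and 580, with a ratio of 12.8 (9.85 to 16.9). Likeness was measured over 2 libraries only.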

How the data were processed

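Small RNAs of 20 to 30 nt that came down with FLAG-tagged NRDE-3 from embryo lysates were measured in 2 libraries. Neither was an input or untagged control, so reads bound to NRDE-3 cannot be told apart from carry-over. The deposited values are raw counts of reads for each transcript, split by strand. Bowtie2 with its default parameters aligned the reads to transcripts of WS243, per the labels' design text, which names no version. The header has 5 names above lines of 6 fields, so columns were taken by position. Lines without an antisense count were left out: 2 lines with 2 reads for N2, and 3 lines with 9 reads for RNAi. MicroRNA genes had 99.9% and 99.5% of their reads in the sense column.

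Names, positions and exon lengths came from Ensembl 115 (WBcel235) by gene identifier; 44852 of 45510 genes matched. Ratios carry the exact Clopper-Pearson interval of the split of both counts, levels an exact Poisson interval. Log2 ratios had 0.5 added to each count. A count of 0 was set to a floor of 3 reads, or 0.390 and 0.542 RPM, where a ratio to it is given. TMM factors came from edgeR 4.0.16; other values from Python 3.11.15 with scipy 1.17.1. The code was tested on simulated data. The members and gene lists were chosen with earlier results of these data known. Named genes were all members, the 3 nearest to eri-6, and dpy-13. Of the listed pathway genes, the 5 with most antisense reads and those that met the size rule as lower were named. In addition, ekl-1, rrf-1, ego-1, pir-1, ergo-1, sosi-1 and nrde-4 were named after their values were seen. No sequence was printed, as none was used here.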

Additional observations from a re-analysis of the deposited data

How the results depend on the processing

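No paired analysis was possible because each group held 1 library, and no library could be left out. The summed ratio of the 10 genes, 10.3 with counted reads, was 1.12 with TMM scaling, 23.1 scaled to antisense reads outside structural RNA, 2.98 scaled to microRNA sense reads, 7.19 with sense reads added, 6.84 without eri-6 and, an alternative chosen after seeing the data, 13.1 without rde-4. These scalings shift every gene alike: the all-gene median of 11.9 became 1.30, 26.9 and 3.46 in that order, so no gene's place among the others moves. Under TMM the ratios of eri-1 (0.754), eri-5 (0.377) and rde-4 (0.231) were below 1. That of eri-7 against the floor of 3 N2 reads was 0.503. With microRNA reads rde-4 was at 0.618. The 2 genes higher by the size rule became 0, 5 and 0 under the 3 scalings, 1 with 100 or more reads and 4 with a level minimum of 5 RPM, and the 11 higher pathway genes became 1, 20 and 2, then 6 and 20. Under the same 5 settings 0.156%, 44.0%, 3.04%, 77.6% and 37.6% of all measured genes were higher by the rule. The N2 counts were 3 or fewer for 7 of the 10 genes, and the intervals of those ratios are wide.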

Other observations

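The density of antisense reads on the downstream eri-6 transcripts can be set beside that on the RNAi trigger. In the RNAi library dpy-13 had 115 antisense reads, or 20.8 RPM and 21.0 RPKM. Transcripts e and f of eri-6 had 493 reads and 43.2 RPKM there. They are the denser part of the gene, and eri-6 as a whole had 22.4 RPKM, near the value of dpy-13. In the N2 library dpy-13 had 1 read and e and f had 51.

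Genes within 4500 bases of the eri-6 and eri-7 pair on the side of eri-7 had fewer antisense reads than eri-6. cmt-1 had 0 and 8, C41D11.9 had 2 and 4, and cps-6 had 8 and 32. Per length these were 0 and 1.72 RPKM for cmt-1, 0.356 and 0.988 for C41D11.9, and 1.03 and 5.72 for cps-6. Transcripts a to d of eri-6 had 0.704 and 7.94. The long intergenic RNA linc-104, in an intron of eri-6 on the opposite strand, had 0 antisense reads in both libraries and 0 and 1 sense reads. These genes were chosen after their values were seen.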
